A study of Homo sapiens with 20 samples.

Results

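The ELAV-like genes ELAVL1, ELAVL2, ELAVL3 and ELAVL4 were followed on 20 Affymetrix U133 Plus 2.0 arrays of HEK293 cells, a human embryonic kidney line. The methods name the Flp-In T-REx form of this line for the cells with a ZFP36 transgene, and call the control cells parental HEK293. All probe sets that the platform annotation assigns to exactly 1 of these 4 genes were taken, which gave 12 of the 50441 probe sets on the arrays: 4 for ELAVL1, 2 for ELAVL2, 3 for ELAVL3 and 3 for ELAVL4. No probe set named a member together with another gene. The 5 induced arrays hold EGFP-ZFP36 cells, which carry a stable transgene for ZFP36 fused to a green fluorescent protein, given 1 µg/ml doxycycline for 16 h and then sorted for fluorescence. The 5 mock arrays hold the same line given water, with fluorescent cells left out by the sorter. Parental cells without the transgene were given doxycycline (5 arrays, parental dox) or water (5 arrays, parental vehicle). The study set out to ask which mRNAs change when ZFP36, an AU-rich element binding protein that promotes mRNA decay, is produced in excess, and how this relates to ELAVL1, which binds overlapping sequences. Each replicate was a pool of flasks from a separate day, and the methods describe the doxycycline flasks of the transgenic line as less confluent than the water flasks, with more floating and rounded cells. The transgene's product, the opposite sorting, cell density and cell state therefore cannot be told apart between induced and mock cells.

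ELAV-like proteins bind U-rich and AU-rich stretches of RNA through RNA recognition motifs, and are best known for stabilising the mRNAs they bind. ELAVL1, also called HuR, is made in nearly every cell type, lies mostly in the nucleus and moves to the cytoplasm with stress. ELAVL2 (HuB), ELAVL3 (HuC) and ELAVL4 (HuD) are known chiefly from neurons, where they act in differentiation and alternative splicing, and ELAVL2 is also known from germ cells.

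Deposited values were log2 GCRMA levels between 2.19, the floor of the table, and 16.6. On this scale a difference of 1 is a doubling. Levels of different probe sets depend on their probes, so they were not set against each other, and only differences between arrays within a probe set were compared. Of the 12 probe sets, 6 had a mean above 4.5 in at least 1 group, all 4 of ELAVL1 and both of ELAVL2. The 6 probe sets of ELAVL3 and ELAVL4 did not. The 6 entered limma fits with all 18639 probe sets that name 1 gene and pass this filter, and a difference counted as called where its p, Bonferroni-adjusted over all 18639, was under 0.01.

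ELAVL2, represented by 228260_at, was lower in induced cells and higher in mock cells than in either parental group. It read 8.94, 9.01, 8.91, 8.93 and 8.92 in the 5 induced arrays and 10.63, 10.33, 10.53, 10.58 and 10.52 in the mock arrays. The parental dox arrays gave 9.73, 9.68, 9.66, 9.78 and 9.71, and the parental vehicle arrays 9.71, 9.73, 9.64, 9.90 and 9.61. Every mock array lay above every parental array, and every induced array lay below them all, whereas the parental groups overlapped. The second ELAVL2 probe set, 208427_s_at, read 4.40, 5.07, 4.78, 4.996 and 5.10 in induced, 6.08, 5.61, 5.90, 6.10 and 5.78 in mock, 5.52, 6.05, 5.31, 5.13 and 5.24 in parental dox, and 5.57, 5.30, 4.86, 5.31 and 5.31 in parental vehicle arrays. Its induced values lay below all mock and parental dox values and overlapped with parental vehicle, and 1 induced array was under 4.5.

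ELAVL1 gave 4 probe sets that did not move alike. The probe set 201726_at read 13.16, 13.18, 13.14, 13.17 and 13.07 in induced arrays, and 13.50, 13.56, 13.55, 13.51 and 13.49 in mock arrays. Its parental dox values were 13.50, 13.51, 13.49, 13.40 and 13.47, and its parental vehicle values 13.48, 13.49, 13.49, 13.39 and 13.45. The induced arrays lay below all 15 others, and the spread within each group was small (SD at most 0.04). By contrast, 201727_s_at read 10.13, 10.12, 10.15, 10.26 and 10.04 in induced, 9.94, 9.82, 10.00, 10.09 and 9.74 in mock, 10.07, 10.11, 10.31, 9.86 and 10.05 in parental dox, and 10.29, 10.11, 10.44, 9.62 and 10.03 in parental vehicle arrays. All 4 groups overlapped with each other in this probe set.

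The probe sets 227746_at and 244660_at showed a wider separation. For 227746_at the values were 5.60, 5.89, 5.49, 5.72 and 5.60 in induced, 7.30, 7.69, 7.20, 7.42 and 7.05 in mock, 6.73, 5.98, 6.09, 6.26 and 6.59 in parental dox, and 6.33, 6.13, 5.61, 6.27 and 6.15 in parental vehicle arrays. The mock arrays lay above all others, and the induced arrays lay below those of parental dox and overlapped with 1 parental vehicle array. For 244660_at the values were 5.02, 5.14, 5.02, 3.46 and 4.39 in induced, 7.30, 6.91, 6.69, 7.07 and 6.76 in mock, 6.23, 5.67, 5.28, 5.73 and 5.65 in parental dox, and 5.80, 5.82, 5.79, 5.58 and 6.32 in parental vehicle arrays. Mock was again above all others and induced below all others. Of the induced arrays, 2 fell under 4.5 in this probe set, and their spread was the widest of any group among the 6 probe sets (SD 0.71).

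**Figure D1:**
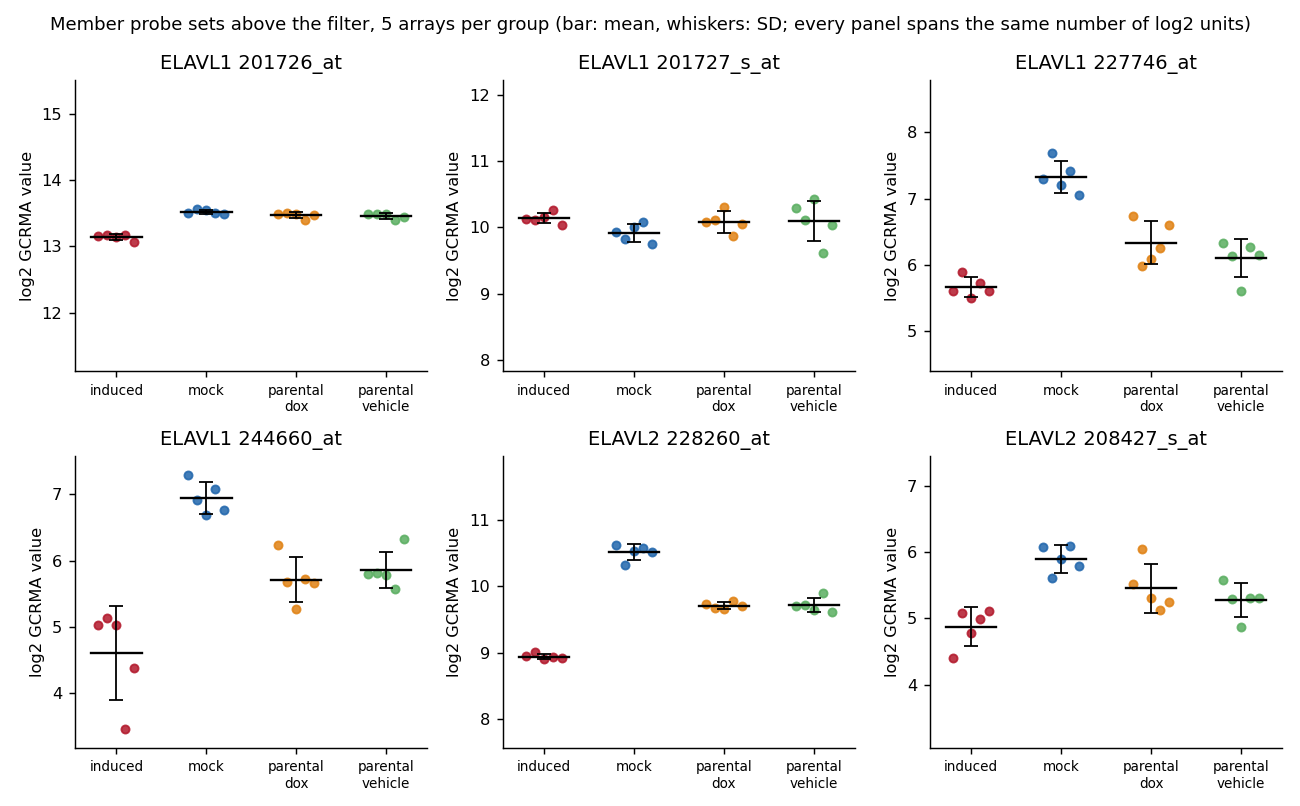
Log2 GCRMA value (y axis) of the 6 ELAVL1 and ELAVL2 probe sets above the filter in the 4 groups (x axis), 1 point per array, with the group mean as a bar and the SD as whiskers. The induced arrays of 228260_at sit between 8.91 and 9.01, below all other groups, whereas those of 201727_s_at sit between 10.04 and 10.26, within the parental range.

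Induced against mock cells was the comparison that asks what follows excess ZFP36. ELAVL2 fell by 1.58 on the log2 scale in 228260_at (SE 0.060, 95% interval −1.71 to −1.44, limma Bonferroni-adjusted p = 1.06e-06), to 33.5% of the mock level. The ELAVL1 probe set 227746_at fell by 1.67 (SE 0.12, 95% interval −1.93 to −1.41, limma Bonferroni-adjusted p = 5.22e-04), to 31.4% of mock, a call that was lost without the filter on low values (limma Bonferroni-adjusted p = 0.0232). These were the 2 of the 6 member probe sets that passed, beside 44.0% of all probe sets tested that were called in either direction and 21.8% that were called lower.

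The other 4 member probe sets did not pass the Bonferroni threshold. Their log2 differences were −0.38 for 201726_at (SE 0.043, 95% interval −0.48 to −0.29, limma Bonferroni-adjusted p = 0.0566), −2.34 for 244660_at (SE 0.29, 95% interval −2.99 to −1.69, limma Bonferroni-adjusted p = 0.153), −1.03 for 208427_s_at (SE 0.14, 95% interval −1.34 to −0.71, limma Bonferroni-adjusted p = 0.436), and 0.22 for 201727_s_at (SE 0.072, 95% interval 0.064 to 0.38, limma Bonferroni-adjusted p = 1). At the milder Benjamini-Hochberg threshold of 0.05 all 6 passed, 5 lower and 201727_s_at higher, but so did 85.5% of all probe sets tested. In 5 of the 6 the induced and mock arrays did not overlap, beside 76.9% of all probe sets. These shares are near the background of this comparison.

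Several array measures moved together with this contrast. The spiked poly-A controls read 8.06 ± 0.21 (SD, n = 5 arrays) in induced and 7.74 ± 0.16 in mock arrays (exact two-sided permutation p = 0.0238), and the 3′ minus 5′ difference of the actin control probe sets, a sign of RNA or labelling quality, was 1.31 ± 0.13 and 1.52 ± 0.14 (exact two-sided permutation p = 0.0476). Centring the arrays on the poly-A controls moved 201727_s_at from 0.22 to −0.10, so that its direction turned. The part of these measures in the results was not tested further.

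Doxycycline by itself was examined in the parental line. None of the 6 probe sets was called, beside 0% (0 of 18639) of all probe sets by limma at either threshold and 2.22% (414) at an unadjusted p under 0.05, and 0 of the 6 reached that. For ELAVL2 228260_at the difference between parental dox and parental vehicle was −0.01, with a 95% interval of −0.14 to 0.13. For ELAVL1 201726_at it was 0.01 (95% interval −0.085 to 0.11). Wider intervals remained for 227746_at (0.23, 95% interval −0.16 to 0.62), 244660_at (−0.15, 95% interval −0.54 to 0.25) and 208427_s_at (0.18, 95% interval −0.23 to 0.58). In no member did the parental groups fail to overlap, beside 0.258% of all probe sets.

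Mock against parental vehicle cells compares the lines without doxycycline. By the methods, the transgenic line was diluted further at passage and grown longer before treatment than the parental line. Line and culture therefore cannot be told apart here, in induced against parental dox cells or in the interaction of doxycycline with line. ELAVL2 228260_at was 0.80 higher in mock cells (SE 0.073, 95% interval 0.64 to 0.96, limma Bonferroni-adjusted p = 0.00936), a 1.74-fold difference. It was the 1 member probe set called of 6, beside 17.1% of all probe sets. This call lay close to the threshold and was lost in 8 of the 10 fits that leave out 1 array, with the difference then between 0.77 and 0.80. The ELAVL1 probe sets 227746_at and 244660_at were 1.23 (SE 0.15) and 1.09 (SE 0.15) higher in mock cells, with limma Bonferroni-adjusted p = 0.152 and 0.412, whereas 201726_at and 201727_s_at gave 0.06 and −0.18. At the Benjamini-Hochberg threshold 4 members passed, all higher in mock cells, beside 70.7% of all probe sets, and the same 4 did not overlap between the groups, beside 58.5%. The median of all probe sets tested on an array was itself 0.11 higher in mock than in parental vehicle arrays (exact two-sided permutation p = 0.00794), and after centring on that median the difference of 228260_at was 0.69 (limma Bonferroni-adjusted p = 0.0428).

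Induced against parental dox cells compares the lines with doxycycline in both. ELAVL2 228260_at was 0.77 lower in induced cells (log2 difference −0.77, SE 0.050, 95% interval −0.88 to −0.66, limma Bonferroni-adjusted p = 2.25e-04), at 58.7% of the parental level, and was again the 1 member called of 6, beside 41.3% of all probe sets. With poly-A centring it was no longer called (limma Bonferroni-adjusted p = 0.728). The 227746_at difference was −0.67 (SE 0.14) here, against −1.67 from mock cells. For 201726_at the 2 differences were −0.33 and −0.38. At the Benjamini-Hochberg threshold 5 members passed, all but 201727_s_at, beside 84.0% of all probe sets, and 5 did not overlap, beside 75.1%. The comparisons with induced cells share the 5 induced arrays, and those with mock cells share the 5 mock arrays.

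**Figure D2:**
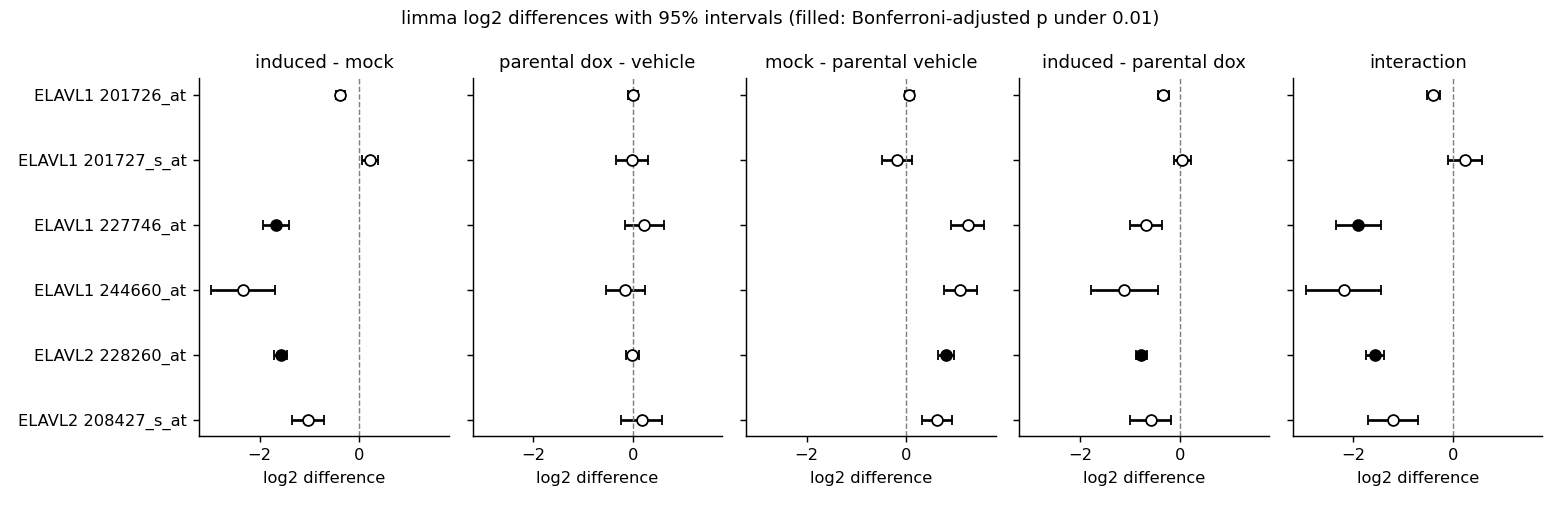
Log2 differences (x axis) with 95% intervals from limma for the 6 probe sets (y axis) in the 4 comparisons of 2 groups and in the interaction, filled where the Bonferroni-adjusted p was under 0.01. All intervals of parental dox minus vehicle include 0, and 228260_at is filled in the other 4 panels.

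Whether the difference with doxycycline was alike in the 2 lines was tested by the interaction in all 20 arrays, the difference of induced minus mock less that of parental dox minus vehicle. It was −1.57 for ELAVL2 228260_at (SE 0.086, limma Bonferroni-adjusted p = 3.24e-09) and −1.90 for ELAVL1 227746_at (SE 0.22, limma Bonferroni-adjusted p = 8.39e-04), and these 2 of 6 passed, beside 39.7% of all probe sets. With poly-A centring the p of 228260_at was 0.0695, as a limma Bonferroni-adjusted value. Without the filter 227746_at just missed the threshold and 201726_at passed it (limma Bonferroni-adjusted p = 2.12e-04). The values for 244660_at and 208427_s_at were −2.19 (limma Bonferroni-adjusted p = 0.139) and −1.20 (limma Bonferroni-adjusted p = 1), and that for 201726_at was −0.39 (limma Bonferroni-adjusted p = 0.0402). At the Benjamini-Hochberg threshold 5 passed, all but 201727_s_at (0.24), beside 77.6% of all probe sets.

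The order of the 4 groups was mock, then the parental groups, then induced in 5 of the 6 probe sets. How often this order or such steps occurred over all probe sets was not counted, so no background stands beside them. Of all probe sets, 58.5% did not overlap between mock and parental vehicle arrays, and 75.1% between induced and parental dox arrays. Neighbouring groups were set by ordering the group means of the same values, so the p-values of the steps describe the order and are no independent test of it. Of the 18 steps between neighbouring groups, 6 differed after Benjamini-Hochberg adjustment over the 18 exact two-sided permutation tests (adjusted p = 0.0238 each, from the smallest p of 0.00794 that 5 against 5 arrays can give). These were both outer steps of 228260_at and of 244660_at, the step from mock to the parental groups in 227746_at, and the step from the parental groups to induced in 201726_at. The middle step, between the parental groups, was never among them. In 201727_s_at the order began with induced and ended with mock, and none of its steps passed (exact two-sided permutation, smallest adjusted p = 0.182).

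Disagreement between the probe sets of 1 gene was tested directly, on the difference of 2 probe sets within each array, over 6 pairs of ELAVL1 and 1 pair of ELAVL2 in 4 comparisons, 28 tests in all. For induced against mock 5 of 7 pairs separated (exact two-sided permutation test, Benjamini-Hochberg adjusted p = 0.0202 each). How often such pairs separated over all genes was not counted in any comparison, so no background stands beside these counts. Of all single probe sets tested, 76.9% did not overlap between induced and mock arrays. The log2 difference of 201727_s_at exceeded that of 244660_at by 2.56 and that of 227746_at by 1.89, and the difference of 201726_at exceeded those of 244660_at and 227746_at by 1.96 and 1.29. The pair of 201726_at and 201727_s_at also separated, with 201726_at minus 201727_s_at at −0.60. The per-array gap of this pair was 2.91 to 3.06 in induced and 3.43 to 3.74 in mock arrays. In contrast, 227746_at and 244660_at differed by 0.67 (exact two-sided permutation, adjusted p = 0.133), and in none of the 4 comparisons was that pair separated.

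For mock against parental vehicle 4 of 7 pairs separated, each of them 201726_at or 201727_s_at less 227746_at or 244660_at, by −1.03 to −1.41. For induced against parental dox 3 of 7 pairs separated, all of them with 201727_s_at. In the parental line with and without doxycycline 0 of 7 pairs did so (smallest exact two-sided permutation p = 0.127, adjusted p = 0.198). The ELAVL2 pair, 228260_at less 208427_s_at, differed by −0.55 for induced against mock (exact two-sided permutation, adjusted p = 0.0513) and passed in no comparison.

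**Figure D3:**
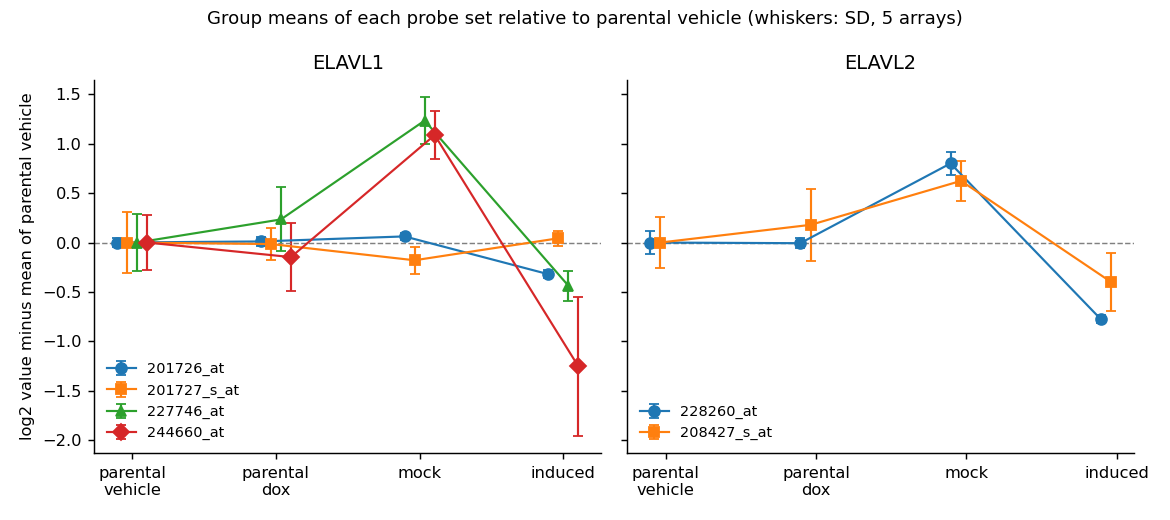
Mean log2 value of each probe set minus its own mean in parental vehicle arrays (y axis) in the 4 groups (x axis), with SD over 5 arrays as whiskers and lines joining the means of 1 probe set. Relative to parental vehicle, 227746_at and 244660_at stand at 1.23 and 1.09 in mock cells while 201726_at and 201727_s_at stand at 0.06 and −0.18. Both ELAVL2 probe sets have their highest mean in mock and their lowest in induced cells.

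Among the 665 genes with at least 4 probe sets tested, the range of log2 differences between the probe sets of a gene had a median of 1.52 for induced against mock. It was 2.56 for ELAVL1, wider than in 79.2% of these genes, so 137 genes had a wider range. ELAVL2, with a range of 0.55, lay near the middle of the 4942 genes with at least 2 probe sets tested (45.5% had a narrower range, median 0.64). Genes with 1 probe set called higher and another called lower numbered 181 of the 4942 (3.66%), and neither ELAVL1 nor ELAVL2 was among them, since no member probe set was called higher in induced cells. At the Benjamini-Hochberg threshold such genes numbered 950 of the 4942 (19.2%), and 257 of the 665 with at least 4 probe sets (38.6%). ELAVL1 was among these, with 201726_at lower and 201727_s_at higher in induced cells, and ELAVL2 was not.

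Over the 20 arrays the level of 227746_at correlated with that of 244660_at with Pearson's r = 0.84, and the r of 201726_at was 0.70 with 227746_at and 0.79 with 244660_at. That of 201727_s_at was −0.16 with 201726_at and −0.51 with 227746_at. Taken as deviations from the group means the order changed, with r = 0.63 between 201726_at and 201727_s_at and 0.19 between 227746_at and 244660_at. These are descriptions over arrays that share their groups, with no test.

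The choice of probe set decided the call for ELAVL1 as a gene. With the probe set of highest mean standing for each of 10834 genes, ELAVL1 gave −0.38 for induced minus mock (limma Bonferroni-adjusted p = 0.0143) and was not called, while the mean of its 4 probe sets gave −1.04 (limma Bonferroni-adjusted p = 9.9e-04) and was. ELAVL2 was called either way, with −1.58 and −1.30. Of all genes by that probe set, 28.8% were called higher and 23.1% lower.

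ELAVL3 and ELAVL4 gave no signal above the filter in any of the 120 values of their 6 probe sets. The ELAVL3 probe sets 1555602_a_at and 227612_at and the ELAVL4 probe set 206051_at were at the floor of 2.19 on all 20 arrays, and ELAVL4 238073_at was at the floor on 18. ELAVL4 241424_at lay between 2.22 and 2.46 on all arrays, with the highest value in induced replicate 5. ELAVL3 206338_at read 3.56, 3.35, 3.35, 3.48 and 4.12 in induced, 3.23, 3.35, 3.35, 3.35 and 3.35 in mock, 3.40, 3.35, 3.35, 3.35 and 3.53 in parental dox, and 3.98, 3.35, 3.83, 3.35 and 3.35 in parental vehicle arrays. All groups overlapped and many arrays shared the value of 3.35. The exact two-sided permutation p for induced against mock was 0.119 in this probe set, and values under the filter carry no dependable difference.

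**Figure D4:**
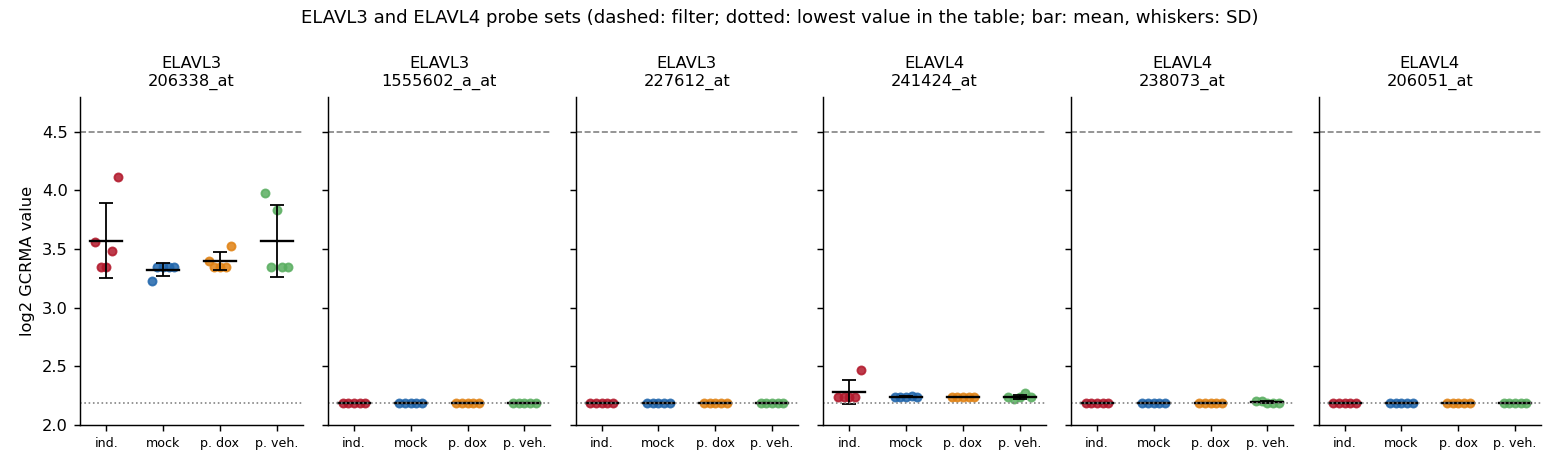
Log2 GCRMA value (y axis) of the 3 ELAVL3 and 3 ELAVL4 probe sets in the 4 groups (x axis), 1 point per array, with the filter of 4.5 as a dashed line and the floor of 2.19 as a dotted line. The highest of the 120 values is 4.12, in an induced array of ELAVL3 206338_at.

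Of 40 mRNAs known from textbooks as ELAVL1 targets, 36 had a probe set and 26 passed the filter. From mock to induced 14 of these fell and 2 rose, beside 23.1% of all 10834 genes called lower and 28.8% called higher, and 10 did not pass. The median log2 difference was −1.22, beside 0.20 over all genes. CYCS, the cytochrome c of the respiratory chain, fell by 4.42 on the log2 scale (SE 0.076, limma Bonferroni-adjusted p = 9.72e-11), from 14.65 to 10.23. HIF1A, the oxygen-regulated transcription factor, fell by 2.08 (SE 0.048), and HDAC2, a histone deacetylase, fell by 2.12 (SE 0.074). BCL2, an inhibitor of apoptosis, fell by 1.64 (SE 0.059), and had been 1.53 higher in mock than in parental vehicle cells. The 2 that rose were PLAUR, the urokinase receptor, and HMOX1, heme oxygenase, by 1.34 (SE 0.085) and 1.55 (SE 0.13), both singled out after their values were seen. Many of these mRNAs carry AU-rich elements, so the list does not separate ELAVL1 targets from those of other AU-rich element binding proteins, and its part in the fall was not tested. For mock against parental vehicle 4 of the 26 were called higher (HIF1A, CDKN1B, BCL2 and TYMS) and 5 lower (HMOX1, PLAUR, RHOB, HDAC2 and DNMT3B), with a median of −0.06, beside 13.2% of genes called higher and 10.9% called lower. In the parental line with doxycycline 0 of the 26 passed.

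Of 18 mRNAs known as targets of the neuronal members, 9 passed the filter, of which 4 fell from mock to induced and 2 rose, beside 23.1% and 28.8% of all genes, with a median of −0.36. NRN1, a neurite growth factor, fell by 1.61 (SE 0.092), MARCKS, an actin-binding protein kinase C substrate, fell by 1.50 (SE 0.079), and SATB1, a chromatin organiser, fell by 0.91 (SE 0.072). SLC2A1, the glucose transporter that stands in both target lists, fell by 1.96 (SE 0.078). The 2 that rose were MAPT, the microtubule-associated protein tau, by 1.92 (SE 0.17), which was singled out after its value was seen, and NEFM, a neurofilament subunit, which read 5.81 in induced cells and was under the filter on every mock array (mean 3.87).

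The other AU-rich element binding proteins gave 7 that fell, 2 that rose and 12 that did not pass of 21 tested, beside 23.1% of all genes called lower and 28.8% called higher, with a median of −0.27. FUBP3 fell by 2.54 (SE 0.14), HNRNPAB fell by 1.85 (SE 0.060), RC3H2, a roquin family ubiquitin ligase that binds mRNA stem-loops, fell by 1.22 (SE 0.060) and PCBP1, a poly(C)-binding protein, fell by 1.09 (SE 0.046). The 2 that rose were TIAL1 (0.75, SE 0.049) and PCBP2 (0.49, SE 0.042), singled out after their values were seen. ZFP36 itself, by 201531_at, read 5.42 in induced and 5.36 in mock cells, with a log2 difference of 0.07 (SE 0.26, limma Bonferroni-adjusted p = 1). No source read here tells whether its probes lie within the transgene, so this value checks no label.

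Of the proteins known to transport or modify ELAVL1, 5 fell, 3 rose and 13 did not pass of 21 tested, with a median of 0.08. The count that fell is near the 23.1% of all genes called lower, and 28.8% were called higher. CDK1, the mitotic kinase that phosphorylates ELAVL1, fell by 2.32 (SE 0.060), HIPK2, another kinase, fell by 2.14 (SE 0.082), MDM2, the ubiquitin ligase known for its action on p53, fell by 1.67 (SE 0.10) and PRKCA, protein kinase C alpha, fell by 1.16 (SE 0.045). The remaining fall was TNPO2, an import receptor of ELAVL1, at −0.67, and the 3 that rose were the methyltransferase CARM1 (0.93) and the ubiquitin ligases BTRC (1.04) and TRIM21, these 4 singled out after their values were seen. TRIM21 passed the filter through the induced arrays alone (mean 5.003) and was under it on every other array, so no size is given for its rise. PRKCA had been 1.22 higher in mock than in parental vehicle cells, so its induced level of 9.50 lay close to the parental levels of 9.42 and 9.44.

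**Figure D5:**
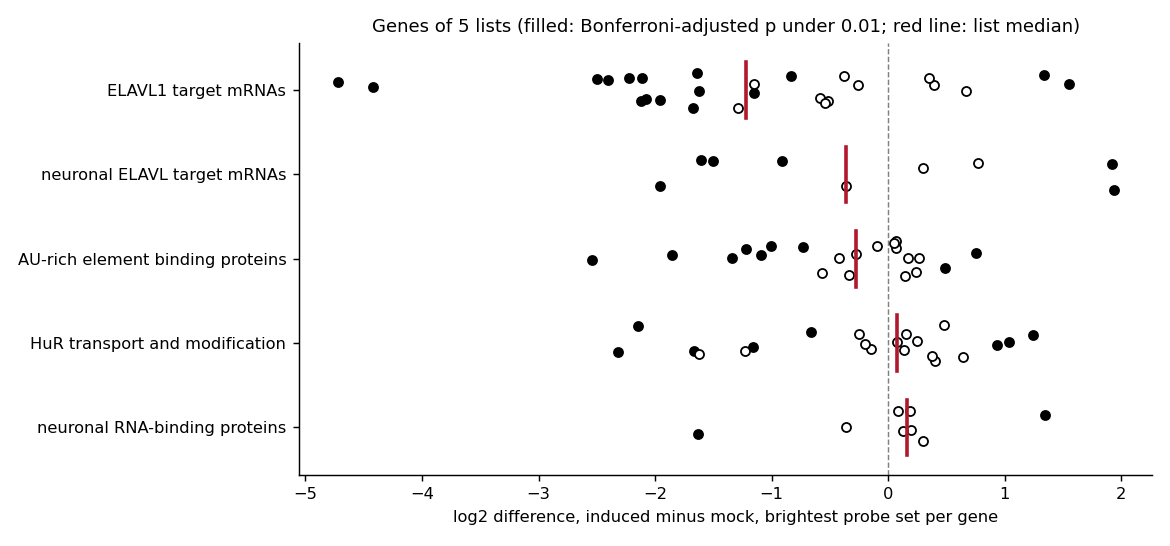
Log2 difference of induced minus mock cells (x axis) for the genes tested in 5 lists (y axis, points spread within a row for visibility), each gene by its probe set of highest mean, filled where the Bonferroni-adjusted p was under 0.01, with the list median as a red line. The median of the ELAVL1 target mRNAs is −1.22 and that of the ELAVL1 transport and modification genes 0.08.

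Among 17 other RNA-binding proteins known from neurons, 8 passed the filter. From mock to induced 1 of these rose and 1 fell, beside 28.8% of all genes called higher and 23.1% called lower. Their median log2 difference was 0.16, beside 0.20 over all genes. CPEB1, which controls poly(A) tail length, rose by 1.35 (SE 0.085) and MSI2, a Musashi protein, fell by 1.63 (SE 0.089), whereas the 6 others did not pass, among them RBFOX2 (0.29, SE 0.039) and KHDRBS3 (0.20, SE 0.062). RBFOX1, RBFOX3, SRRM4 and CELF4 to CELF6 stayed below 2.6 in every group mean. HEK293 cells are known to express some neuronal genes, and of 13 neuron markers with a probe set 4 to 5 were above 4.5 in a group. NEFL read 13.49 in induced and 12.87 in mock cells, a rise of 0.63 (SE 0.053), and SNAP25, a synaptic vesicle fusion protein, rose by 2.43 (SE 0.17), while ENO2 gave −0.69 (SE 0.093, limma Bonferroni-adjusted p = 0.161). Between the lines, mock against parental vehicle, the 7 neuron markers tested went both ways, with a median of 0.77. NEFL, INA, SNAP25 and ENO2 were called higher in mock cells, and NEFM, SYT1 and GAP43 lower, beside 13.2% of all genes called higher and 10.9% called lower. The last 3 were under the filter on every mock array and SNAP25 on every parental array. SYT1 and GAP43 passed the filter only through the parental groups, and SNAP25 and ENO2 only through the transgenic line. The direction of these calls follows from how the genes entered the test, and the median includes them. DCX and NEFH were at 2.19 in every group mean. The mean level over the 13 ranged from 4.90 to 4.97 in induced, 4.59 to 4.74 in mock, 5.02 to 5.27 in parental dox and 5.05 to 5.22 in parental vehicle arrays. The part of these genes in the ELAVL2 values was not tested. Of the 5 HEK293 markers with a probe set, LIN28B fell by 3.01 (SE 0.053), and PAX2 was under the filter on all arrays but the induced ones (mean 4.86). Probe sets of 7 blood cell genes and of 8 genes that mark fibroblasts or endothelium were under the filter in all groups. In such bulk samples fewer cells of a type and less RNA per cell cannot be told apart.

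The genes most like ELAVL1 201726_at over the 20 arrays, by Pearson's r among 10832 other genes, were UBE2N (r = 0.98), FECH (r = 0.98) and ETF1 (r = 0.98). UBE2N encodes a ubiquitin-conjugating enzyme, FECH the last enzyme of haem synthesis and ETF1 a translation release factor. Those most like ELAVL2 228260_at were PPP1R12A, a myosin phosphatase subunit (r = 0.99), ZIC2, a zinc finger transcription factor (r = 0.99), and STX7, an endosomal syntaxin (r = 0.99). The ELAVL2 pattern of high mock, middle parental and low induced levels was shared by ZIC2, with group means of 14.44 in mock, 13.44 and 13.40 in the parental groups and 12.15 in induced cells. Such likeness was common, since 1392 genes had an r above 0.9 with 201726_at and 590 with 228260_at.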

How the data were processed

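Per the labels and the authors' methods, RNA of 5 replicates in each of 4 groups was amplified and hybridised to Human Genome U133 Plus 2.0 arrays, with normalization by GCRMA, done by the authors in a version not given. The deposited values are log2 levels, and they were used as deposited. Names of probe sets came from the platform annotation. Those naming 1 gene, 38070 of 50441, were filtered on a mean above 4.5 in at least 1 group. For each comparison the arrays of its groups were fitted by lmFit and eBayes (limma 3.58.1, R 4.3.3), and for the interaction all 20. The filter and the Bonferroni threshold of 0.01 follow the study, whose test is not named. Exact permutation tests and figures were made in Python 3.11.15. The members, gene lists and named genes (up to 4 per list with the smallest p for induced against mock, and the 3 genes most correlated with each member) were chosen with earlier results of these data known. The number of arrays limits the precision, and their p-values cover the spread between 5 replicates. The fitting code was also checked on simulated data. Alternatives covered the filter, threshold, centring, variance model, replicate block, gene summary and left-out replicates. No array was left out.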

Additional observations from a re-analysis of the deposited data

Results flagged for a closer look

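The difference with doxycycline was not the same in the 2 lines for ELAVL1 227746_at, by −1.90 on the log2 scale, and for ELAVL2 228260_at, by −1.57, in the interaction of limma with all 20 arrays. In the transgenic line this difference also holds the transgene's product, the opposite sorting, cell density and cell state. This interaction was called in 39.7% of all probe sets. Both probe sets were lower in induced than in mock cells in all 5 arrays against all 5, while the parental groups overlapped. Of all probe sets, 76.9% did not overlap between induced and mock in either direction, and 0.258% did not overlap between the parental groups. One array stood apart within its group, parental vehicle replicate 3 in ELAVL1 227746_at, at 5.61 against 6.13 to 6.33 in the 4 others. Dixon's criterion marks about 1 in 20 groups by chance, and 24 groups were examined.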

How the results depend on the processing

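Of 649 single log2 differences examined under an alternative, 587 stayed called, or stayed uncalled and moved by less than 1 SD. Another 29 came to pass, 19 no longer passed, 14 stayed uncalled and moved by more, and no called difference turned its sign. Only centring and left-out replicates could change the size of a difference. Under the other alternatives a difference that stayed uncalled could not count as moved, so the 587 are no measure of stability. With Benjamini-Hochberg adjustment the number of member probe sets called became 6 for induced against mock, 4 for mock against parental vehicle, 5 for induced against parental dox and 5 for the interaction. With all 20 arrays in 1 model it became 4, 2 and 2 for the first 3, and with poly-A centring 4 for induced against mock and 0 for mock against parental vehicle. For mock against parental vehicle it was also 0 with 1 variance per group, with centring on the median and with no filter. With a mean-variance trend it was 2 for induced against parental dox and 3 for induced against mock and for the interaction, in each of which ELAVL1 201726_at came to pass (limma Bonferroni-adjusted p = 0.00873, 5.07e-04 and 5.41e-04). Without the filter the 2 calls for induced against mock were 201726_at and 228260_at, as 227746_at reached a limma Bonferroni-adjusted p = 0.0232. The same exchange took place in the interaction, where 227746_at just missed the threshold. With poly-A centring 244660_at took the place of 228260_at for induced against parental dox and in the interaction, and with centring on hybridization controls 227746_at did so for mock against parental vehicle. Leaving out each replicate gave 2 to 3 for induced against mock, where dropping induced replicate 4 added 244660_at, 0 to 1 for mock against parental vehicle, and 10 to 14 of the 28 probe set pairs. In 1 value per gene, averaging all probe sets or those above the filter gave 2 genes called, with −1.04 for ELAVL1. For both lines the methods describe treated and untreated cells in the same experiment, repeated on separate days, but no source ties the replicate numbers to days. The values did not show that the numbers pair the arrays. Same-numbered induced and mock arrays deviated together with r of 0.0139 to 0.212, and 1 of 5 correlated best with its own number, while in the parental line r was −0.192 to 0.383. With the replicate block the count was 2 for induced against mock and the interaction, and 0 for mock against parental vehicle and for induced against parental dox. No source links the replicate numbers of the 2 lines, so the block has no stated basis in the comparisons that gave 0. Dim probe sets limit what can be read: ELAVL3 and ELAVL4 lay under the filter throughout, and 244660_at and 208427_s_at partly so in induced cells.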
